A study of Mus musculus with 6 samples.

Results

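The variable (V) segments of the immunoglobulin heavy, kappa and lambda chain genes were measured in RNA from the distal colon of mice given dextran sulphate sodium (DSS), with or without montmorillonite, or water. Members were the genes of the deposited table whose Ensembl identifier is annotated in GENCODE M21 as a functional V segment (biotype IG_V_gene) with a symbol that begins with Ighv, Igkv or Iglv. There were 188 such segments among 20533 genes: 95 Ighv, 90 Igkv and 3 Iglv. GENCODE annotates 216 by the same rule, and the remaining 28 were not analysed here. On GRCm38 the Ighv members lie on chromosome 12 between 113578504 and 116000461, the Igkv members on chromosome 6 between 67609713 and 70704177, and the Iglv members on chromosome 16 between 19085017 and 19260859. Their exonic length was 338 to 480 bases, with a median of 359.

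All mice were wild type C57BL/6 males aged 7 weeks, and colon was taken on day 7. Each of 3 groups had 2 libraries: 2% DSS with powdered montmorillonite, a clay whose dose is not given in the sources used here, 2% DSS alone, and water. DSS, a sulphated polysaccharide, damages the lining of the colon and serves to model colitis. No label says that the 2 libraries of a group are from different mice, so the p-values measure only the spread between these libraries, which may be technical.

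Immunoglobulin genes are assembled in developing B cells, where each cell joins 1 V segment to shorter joining segments, with diversity segments between them in the heavy chain, so that a finished antibody transcript carries a single V segment for each chain. In the gut wall most antibody RNA comes from plasma cells, many of which secrete immunoglobulin A, and RNA of a V segment in bulk tissue is the sum over all B cells and plasma cells that use it. Cells that descend from the same B cell share a V segment, but reads over a V segment do not separate such clones, because the joint that identifies a clone lies at its 3′ end and beyond.

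That 3′ end is shown for the Ighv and Igkv segments that took the largest share of their locus in at least 1 library, and for Igkv14-111 and Igkv3-4, which came second in a library. The last 75 bases of each annotated transcript are printed on the coding strand, from GENCODE M21 transcripts on GRCm38, and capitals run from the codon of the conserved cysteine to the end of the germline segment. There the joined segment takes over in a rearranged gene. The segments are Ighv1-75 (chr12:115833950-115834418, minus strand), Ighv1-26 (chr12:114788372-114788805, minus strand), Ighv3-6 (chr12:114288152-114288582, minus strand), Ighv1-9 (chr12:114583569-114584002, minus strand), Ighv2-2 (chr12:113588267-113588702, minus strand), Igkv17-121 (chr6:68036812-68037318, plus strand), Igkv14-111 (chr6:68256389-68256869, plus strand) and Igkv3-4 (chr6:70671788-70672377, plus strand).
Ighv1-75: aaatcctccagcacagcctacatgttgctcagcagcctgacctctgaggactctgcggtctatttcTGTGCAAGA
Ighv1-26: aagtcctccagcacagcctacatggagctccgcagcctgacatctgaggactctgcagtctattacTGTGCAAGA
Ighv3-6: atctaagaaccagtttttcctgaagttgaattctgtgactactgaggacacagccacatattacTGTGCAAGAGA
Ighv1-9: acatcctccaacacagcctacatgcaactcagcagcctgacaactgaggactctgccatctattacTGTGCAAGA
Ighv2-2: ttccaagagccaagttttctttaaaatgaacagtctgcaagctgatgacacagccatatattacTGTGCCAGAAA
Igkv17-121: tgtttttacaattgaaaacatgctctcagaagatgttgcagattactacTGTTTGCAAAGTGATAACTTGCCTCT
Igkv14-111: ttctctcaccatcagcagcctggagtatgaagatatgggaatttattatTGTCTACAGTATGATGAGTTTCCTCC
Igkv3-4: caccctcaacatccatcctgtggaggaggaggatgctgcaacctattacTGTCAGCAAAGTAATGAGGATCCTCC

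The cysteine was found with a pattern of 3 codons (TAT or TAC, then TAT, TAC, TTT or TTC, then TGT or TGC) on the coding strand. The pattern was present in the last 75 bases of 185 of the 188 segments, or 98.4%. From the cysteine codon on, and with it, the heavy chain segments shown have 9 or 11 germline bases and the kappa segments 26. The 3 segments of the Ighv1 family end on the same 9 bases.

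The libraries differed in depth. Reads recovered from the deposited values summed to 6395768 and 4494666 in DSS plus montmorillonite, 21481594 and 15212981 in DSS, and 8936826 and 3741494 in water. V segments took 5776 and 23871 of these reads in DSS plus montmorillonite, 160322 and 86556 in DSS, and 8778 and 3512 in water. The deposited value, called the normalised read count here, scales the reads of a library by a single factor, and 1 read was worth 0.335 to 2.27. A read was seen for 156 and 166 segments in DSS plus montmorillonite, for 186 and 182 in DSS, and for 161 and 151 in water, and 130 segments had a read in every library. The 2 DSS plus montmorillonite libraries stood apart: over all genes tested, replicate 1 correlated with the water libraries at 0.959 and 0.947 and replicate 2 with the DSS libraries at 0.948 and 0.954, while they correlated with each other at 0.902. Results of that group are therefore given by library.

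The summed level of V segments was high in both DSS libraries and in 1 of the 2 DSS plus montmorillonite libraries. Summed normalised read counts over the 188 segments were 8308 and 43371 in DSS plus montmorillonite, 53708 and 41493 in DSS, and 8426 and 7987 in water. Replicate 1 of DSS plus montmorillonite lay within the water range and replicate 2 within the DSS range. As a share of all reads, V segments made up 0.0903% and 0.531% in DSS plus montmorillonite, 0.746% and 0.569% in DSS, and 0.0982% and 0.0939% in water. In bulk tissue, a different number of B cells and plasma cells and a different amount of antibody RNA per cell cannot be told apart.

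The heavy chain segments differed most. Ighv segments summed to 2872 and 19777 in DSS plus montmorillonite, 20050.0 and 18425 in DSS, and 2667 and 2756 in water, which put DSS 7.09-fold above water (log2 2.83). For Igkv segments the sums were 4841 and 21710.1 in DSS plus montmorillonite, 26428 and 20131 in DSS, and 4965 and 4125 in water, and DSS stood 5.10-fold above water (log2 2.35). DSS and water did not overlap at either locus. Iglv segments summed to 594 and 1884 in DSS plus montmorillonite, 7230.4 and 2936 in DSS, and 793 and 1105 in water. Here DSS was 4.92-fold above water (log2 2.30) without overlap, and the DSS libraries differed from each other more than at the other loci. These sums carry no test, since with 2 libraries a group the smallest p of an exact permutation test is 0.333.

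**Figure D1:**
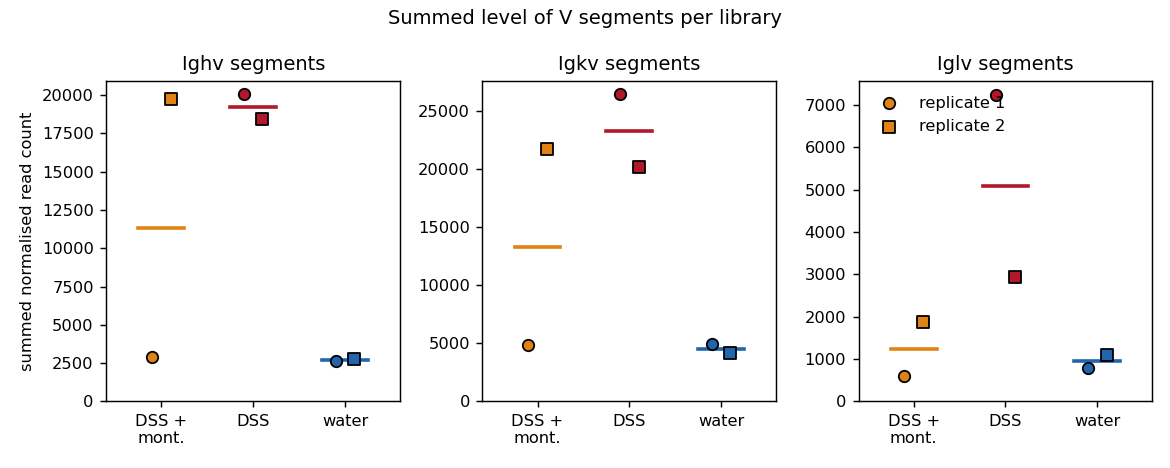
Summed normalised read count of Ighv, Igkv and Iglv segments in each library (points, with circles for replicate 1 and squares for replicate 2) and the mean of each group (horizontal line), with DSS plus montmorillonite shown as DSS + mont. In all 3 panels the water libraries sit low and the DSS libraries high, while the DSS plus montmorillonite libraries are split, at 2872 and 19777 for Ighv.

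DSS plus montmorillonite set against water gave a log2 difference of 1.21 for all V segments (2.31-fold), with overlapping libraries. Ighv alone did not overlap, at 2.78-fold, since replicate 1 was just above both water libraries. Against DSS, DSS plus montmorillonite stood at 0.402 of the level (log2 -1.31) with overlap, and Iglv, at 0.230 of the level (log2 -2.12), was the only locus without it. Without replicate 1 of DSS plus montmorillonite the difference from DSS over all V segments was -0.12, and without replicate 2 it was -2.51.

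The constant regions to which these segments are spliced were higher in DSS as well. Heavy chain constant regions together were 5.85-fold above water, the kappa constant region Igkc 4.38-fold and the lambda constant regions 3.42-fold, each by less than the V segments of the same chain. V segments made up 10.9% and 13.5% of all immunoglobulin reads in DSS plus montmorillonite, 17.1% and 13.8% in DSS, and 13.9% and 14.1% in water. DSS and water thus overlapped in that share, with DSS replicate 2 just below both water libraries.

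The balance of the loci was compared per length, as sums of values per exonic kb. Ighv made up 34.5% and 45.5% of the V signal in DSS plus montmorillonite, 37.4% and 44.5% in DSS, and 31.8% and 34.8% in water, so that both DSS libraries lay above both water libraries. The ratio of Igkv to Iglv was 8.56 and 12.2 in DSS plus montmorillonite, 3.87 and 7.24 in DSS, and 6.61 and 3.95 in water. Both DSS plus montmorillonite libraries were above the other 4, and DSS and water overlapped. The ratio of the kappa to the lambda constant regions per kb was 23.4 and 34.6 in DSS plus montmorillonite, 10.6 and 23.7 in DSS, and 15.7 and 9.44 in water. DSS replicate 2 was slightly above DSS plus montmorillonite replicate 1 in that measure, so it did not separate the groups.

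How far single segments dominated was read from shares, each the value of a segment per exonic kb over the sum of its locus. In the heavy chain the leading segment held between 6.34% and 10.3% of the locus, and the first rank changed hands. The first segment was Ighv1-26 with 7.46% and Ighv3-6 with 10.3% in DSS plus montmorillonite, Ighv1-75 with 6.34% and 7.15% in DSS, and Ighv1-9 with 7.15% and Ighv2-2 with 10.2% in water. Equal use of 95 segments would give each 1.05%. Only in DSS did both libraries share the segment of first rank, and in DSS replicate 1 Ighv1-64 followed at 6.33%.

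The first 10 Ighv segments held 53.8% and 57.8% in DSS plus montmorillonite, 49.3% and 48.4% in DSS, and 42.1% and 47.3% in water. The number of segments needed to reach 50% was 9 and 8 in DSS plus montmorillonite, 11 and 11 in DSS, and 14 and 12 in water. By these 2 measures the groups did not overlap, with use most concentrated in DSS plus montmorillonite and least in water. To reach 90%, DSS needed 39 and 42 segments and overlapped both other groups. DSS plus montmorillonite needed 38 and 40, and water 41 and 43. The effective number of segments, the inverse of the summed squared shares, was 26.5 and 22.3 in DSS plus montmorillonite, 30.7 and 30.9 in DSS, and 35.6 and 30.1 in water. Both DSS plus montmorillonite libraries lay below the other 4, with a mean difference of -6.41 from DSS and of -8.44 from water, while DSS and water overlapped, water replicate 2 being below both DSS libraries. With each library brought down to 1212 Ighv reads, the expected number of segments seen was 71.1 and 72.0 in DSS plus montmorillonite, 74.5 and 77.0 in DSS, and 75.5 and 74.0 in water.

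**Figure D2:**
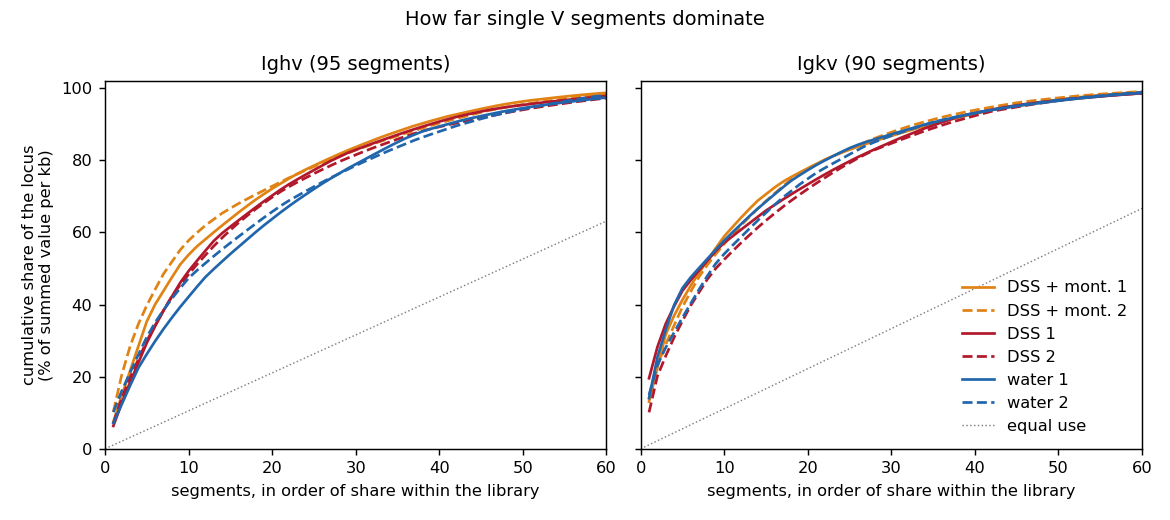
Cumulative share of the locus (in %, from values per exonic kb) against the number of segments taken in order of share, for Ighv and Igkv, with 1 line per library (solid for replicate 1, dashed for replicate 2) and a dotted line for equal use. In the Ighv panel both DSS plus montmorillonite lines (DSS + mont.) are uppermost at 10 segments, at 53.8% and 57.8%, and in the Igkv panel the groups are mixed.

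The kappa locus was led by the same segment in every library. Igkv17-121 held 13.1% and 13.9% in DSS plus montmorillonite, 19.6% and 10.1% in DSS, and 14.0% and 15.0% in water, against 1.11% for equal use of 90 segments. The 2 DSS libraries bracketed all others. As a share of Igkv reads the segment stood at 19.3% (95% exact Clopper-Pearson interval 19.1% to 19.6%) in DSS replicate 1 and at 10.01% (9.72% to 10.3%) in DSS replicate 2, so these differed beyond counting error. Such intervals cover counting error only.

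Igkv14-111 was second in 5 of the 6 libraries, with 9.39% and 9.16% in DSS plus montmorillonite, 8.65% and 10.001% in DSS, and 6.87% and 8.20% in water. The exception was water replicate 1, where Igkv3-4 was second at 11.3%. In the other libraries Igkv3-4 held 9.29% and 5.90% in DSS plus montmorillonite, 6.48% and 5.65% in DSS and 3.88% in water replicate 2. Its share thus varied more between the 2 water libraries than between groups, and that of Igkv14-111 varied less. The first 10 Igkv segments held 58.9% and 56.8% in DSS plus montmorillonite, 57.2% and 52.5% in DSS, and 57.8% and 54.1% in water, and the effective number of segments was 19.7 and 20.4, 15.98 and 24.7, and 18.4 and 20.9 in the same groups. The groups overlapped in both measures.

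In the lambda locus, which has 3 V segments in the mouse, Iglv1 led in every library. It held 49.7% and 75.9% in DSS plus montmorillonite, 77.4% and 72.6% in DSS, and 76.4% and 87.5% in water. Iglv3 held 35.6% and 18.2% in DSS plus montmorillonite, 18.0% and 22.6% in DSS, and 19.1% and 5.04% in water. The low Iglv1 share of DSS plus montmorillonite replicate 1 rested on 413 Iglv reads, of which 50.6% were from Iglv1 (exact interval 45.7% to 55.5%), an interval below those of the other 5 libraries. Iglv2 held 14.7% and 5.92% in DSS plus montmorillonite, 4.598% and 4.81% in DSS, and 4.49% and 7.43% in water.

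Iglv1 and Iglv2 are close copies, which bears on how their reads could be divided. Over the last 240 bases of their annotated transcripts they differ at 6 positions (97.5% identity), and their longest identical run is 104 bases. The stretches are printed on the coding strand from GENCODE M21, Iglv1 from chr16:19085017-19085500 and Iglv2 from chr16:19260401-19260859 on GRCm38, both on the minus strand, with the differing bases in capitals.
Iglv1: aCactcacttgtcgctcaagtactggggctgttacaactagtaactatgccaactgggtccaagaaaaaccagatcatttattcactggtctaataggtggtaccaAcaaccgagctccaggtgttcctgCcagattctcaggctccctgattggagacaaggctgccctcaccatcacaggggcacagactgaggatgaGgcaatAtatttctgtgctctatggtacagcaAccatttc
Iglv2: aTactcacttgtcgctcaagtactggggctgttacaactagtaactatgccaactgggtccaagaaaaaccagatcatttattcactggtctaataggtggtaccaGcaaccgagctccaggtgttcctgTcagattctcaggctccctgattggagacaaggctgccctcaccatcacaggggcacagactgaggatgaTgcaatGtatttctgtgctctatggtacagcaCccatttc

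Shared sequence was not limited to lambda. Windows of 50 bases were compared with all annotated V segments and V pseudogenes (copies that encode no functional chain), members or not. Of the 188 segments 35 shared no window, the median segment shared 23.2% of its windows, and 26 shared over 50%. Igkv17-121 shared 36.8% of its windows, all with Igkv17-127, Ighv1-75 shared 42.9% and Ighv1-26 49.0%. Ighv1-72, with 92.5%, and Ighv2-2, with 55.4%, were the named segments whose reads are least certain. Igkv14-111 and Iglv3 shared none, Ighv1-9 shared 0.662% and Ighv3-6 3.32%. Whether reads that match several segments were counted, and whether counting used the strand, is not given in the sources used here. Antibody genes of some mature B cells can also carry mutations in the V segment, and their effect on mapping was not tested.

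The leading segments were largely shared between libraries. In every library 7 Ighv segments (Ighv1-9, Ighv1-18, Ighv1-55, Ighv1-64, Ighv1-72, Ighv1-75 and Ighv3-6) and 4 Igkv segments (Igkv3-4, Igkv6-23, Igkv14-111 and Igkv17-121) were among the first 10 of their locus. Any pair of libraries shared 7 to 9 of the first 10 Ighv segments and 5 to 8 of the first 10 Igkv segments. Pairs within a group lay in the same range, with 8 Ighv and 8 Igkv segments between the DSS plus montmorillonite libraries, 8 and 7 between the DSS libraries, and 7 and 6 between the water libraries. Across segments with a mean value of at least 5, the log2 values of 2 libraries correlated at Pearson r of 0.59 to 0.73 over 83 Ighv segments and 0.67 to 0.78 over 79 Igkv segments. Segments share library depth and sequence, so these are descriptions.

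**Figure D3:**
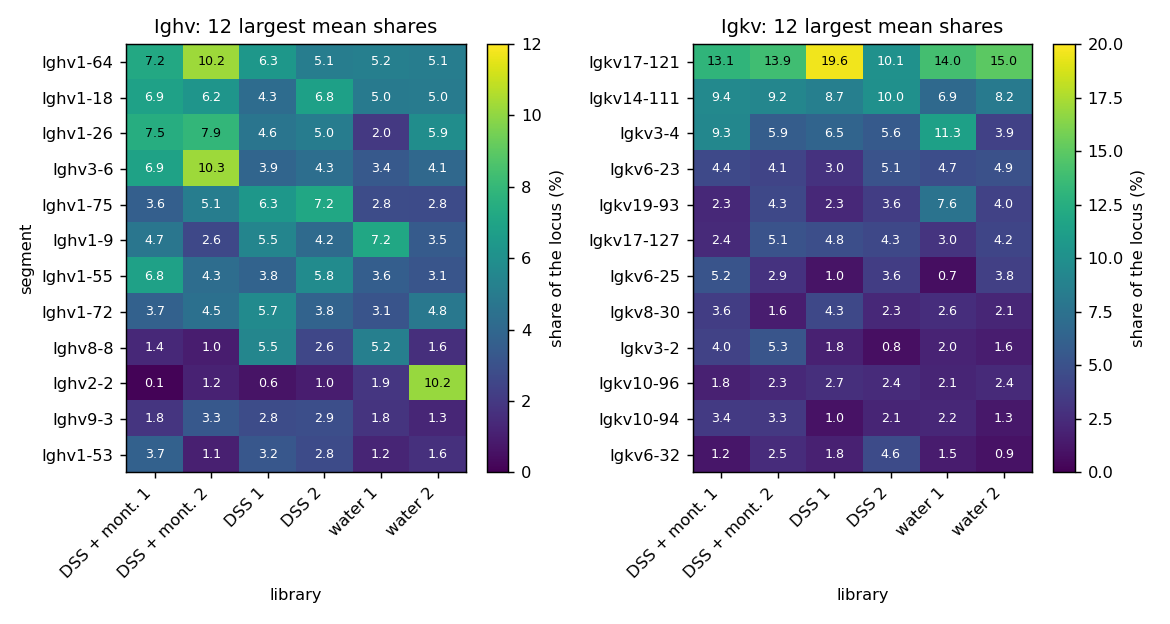
Share of the locus in % (colour and printed value, from values per exonic kb) for the 12 Ighv and the 12 Igkv segments with the largest mean share, in the 6 libraries, where DSS + mont. stands for DSS plus montmorillonite. Igkv17-121 leads its locus in all 6 columns, and Ighv2-2 reaches 10.2% in water replicate 2 alone.

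Some segments were high in a single library. Ighv2-2 held 10.2% of the locus in water replicate 2, from 118 reads, against a median of 0.972% in the other 5 libraries. Its share of Ighv reads there was 9.74%, with an exact interval of 8.13% to 11.6%. Ighv8-8 held 1.39% and 0.977% in DSS plus montmorillonite, 5.49% and 2.55% in DSS, and 5.17% and 1.61% in water, high in 1 DSS library and 1 water library. Ighv1-75, in contrast, was high in both libraries of a group, with 3.61% and 5.11% in DSS plus montmorillonite, 6.34% and 7.15% in DSS, and 2.80% and 2.76% in water.

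V segments are named by family, members of which are related in sequence. Ighv1, the largest, has 47 of the 95 Ighv segments (49.5%) and held 70.6% and 67.9% of the locus in DSS plus montmorillonite, 67.6% and 68.1% in DSS, and 65.5% and 58.7% in water. The water library with 58.7% was the library in which Ighv2, at 13.6%, was above 10%, and Ighv2 held 2.74% to 4.23% in the others. Ighv3 was above 10% only in DSS plus montmorillonite replicate 2, at 11.8%, and lay between 4.42% and 9.05% elsewhere. In the kappa locus the Igkv17 family, with only 2 segments, held 15.5% and 19.0% in DSS plus montmorillonite, 24.4% and 14.5% in DSS, and 17.0% and 19.1% in water. Igkv4, with 25 segments, held 9.74% and 8.83% in DSS plus montmorillonite, 10.7% and 11.3% in DSS, and 10.2% and 12.9% in water. The 2 segments of Igkv17 thus held more than the 25 of Igkv4 in each library. Igkv3 held 19.96% and 17.3% in DSS plus montmorillonite, 13.0% and 14.8% in DSS, and 15.0% and 10.5% in water. Both DSS plus montmorillonite libraries were thus above the other 4. Igkv6 held 9.60% to 17.8%, and for both families DSS and water overlapped. Igkv14 held 11.6% and 9.44% in DSS plus montmorillonite, 9.79% and 10.2% in DSS, and 7.78% and 8.66% in water, where both libraries were below the other 4.

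Use was uneven along each locus. The 32 Ighv segments farthest from the constant regions held 48.2% and 46.0% in DSS plus montmorillonite, 52.6% and 50.3% in DSS, and 49.6% and 37.6% in water, and the 32 nearest held 17.2% and 16.6%, 18.7% and 17.4%, and 18.1% and 28.0% in the same groups. Water replicate 2, with its Ighv2-2 reads near the 3′ end of the locus, was the exception in both. In Igkv the 30 segments farthest from Igkc held 41.3% and 49.4% in DSS plus montmorillonite, 51.6% and 45.2% in DSS, and 49.5% and 47.7% in water. The 30 in the middle held 14.2% to 20.4% and the 30 nearest 30.9% to 44.5%. Kappa segments lie in both orientations, and the 34 of 90 on the plus strand held 58.8% and 59.1% in DSS plus montmorillonite, 60.8% and 56.2% in DSS, and 54.6% and 54.9% in water. The unevenness along the locus was thus present in all 6 libraries, while the plus strand share was lowest in the 2 water libraries.

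**Figure D4:**
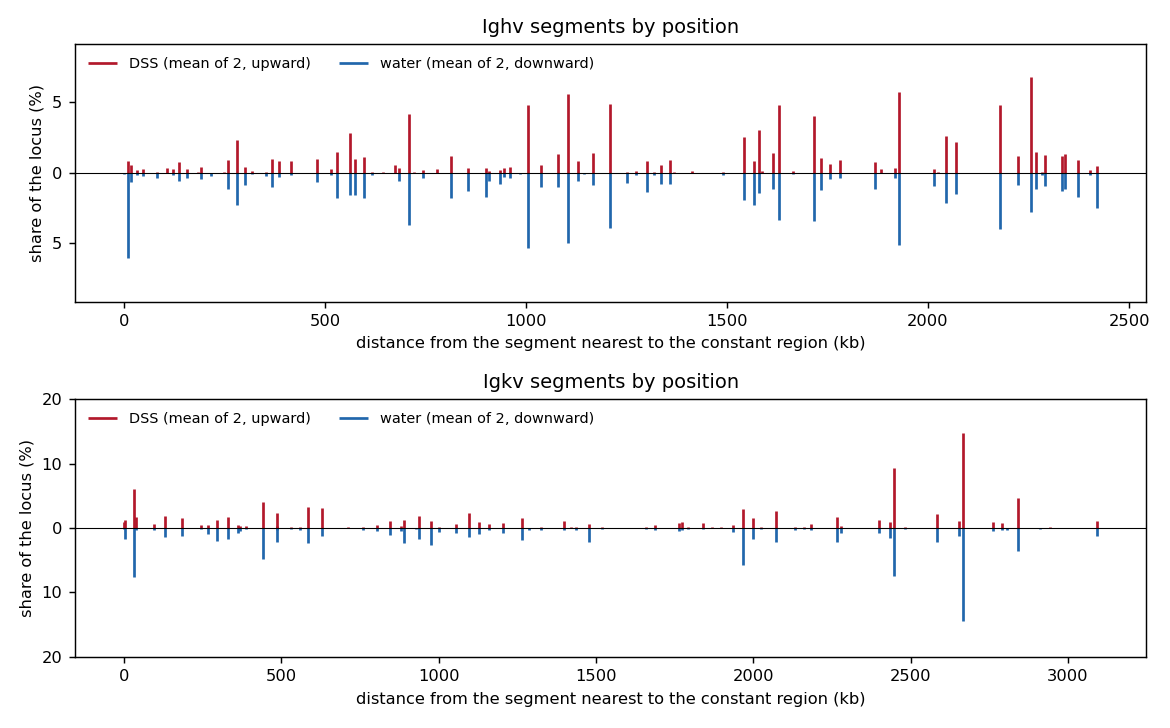
Mean share of the locus (in %, from values per exonic kb) of each Ighv and Igkv segment in the 2 DSS libraries (upward) and the 2 water libraries (downward), against its distance in kb from the segment nearest to the constant region. The tallest Igkv line, upward and downward, is Igkv17-121, far from the constant region, and the tallest downward Ighv line, near distance 0, is Ighv2-2.

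The comparison of DSS with water asks which segments changed when colitis was provoked. In a limma fit of log2(value + 1) on these 4 libraries, 83 of 186 V segments tested rose and none fell at a Benjamini-Hochberg adjusted p below 0.05, while 7.9% of all 20307 genes tested rose and 7.18% fell. The rise took in 46 of 94 Ighv, 35 of 89 Igkv and 2 of 3 Iglv segments, and 103 did not pass. The 2 members outside the test, Ighv12-3 and Igkv4-62, had a mean value below 1. The log2 fold change was positive in 180 segments and negative in 6, with a median of 2.45 (2.32 when the 17 segments without a read in water are set at their bound), beside a median of 0.10 over all genes. Those 17 could not come out lower in DSS, so their direction carries no information, and no segment tested lacked a read in DSS. All genes of the deposited table had at least 10 reads over the 6 libraries, and the DSS libraries were the deepest. A segment of low level could thus enter the table through DSS alone. In 143 of the 186 segments both DSS values were above both water values, beside 33.9% of all genes, and in none were both below, beside 28.5% of all genes. The counts of 83, 180 and 143 include segments without a read in water.

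These calls depended on which libraries were fitted. With all 6 libraries in 1 limma fit 0 V segments passed (smallest adjusted p = 0.141), and 0 of all genes did. At an unadjusted p below 0.05 that fit had 90 V segments higher, beside 12.5% of all genes. edgeR on the recovered reads of the 4 libraries called 91 V segments higher, with 8.2% of all genes higher and 6.53% lower. DESeq2 called 112 higher, with 10.5% of all genes higher and 9.27% lower, and edgeR with all 6 libraries called 0. Neither called a V segment lower. Leaving out either of the DSS libraries, where the lone DSS library is assumed to vary like the water libraries, limma called 0. It called 40 higher without water replicate 1 (1.18% of all genes) and 31 without water replicate 2 (1.25% of all genes). After thinning every library to the depth of the shallowest, 12 were higher (0.591% of all genes), and with the replicate number as a block 126 (13.4% of all genes).

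**Figure D5:**
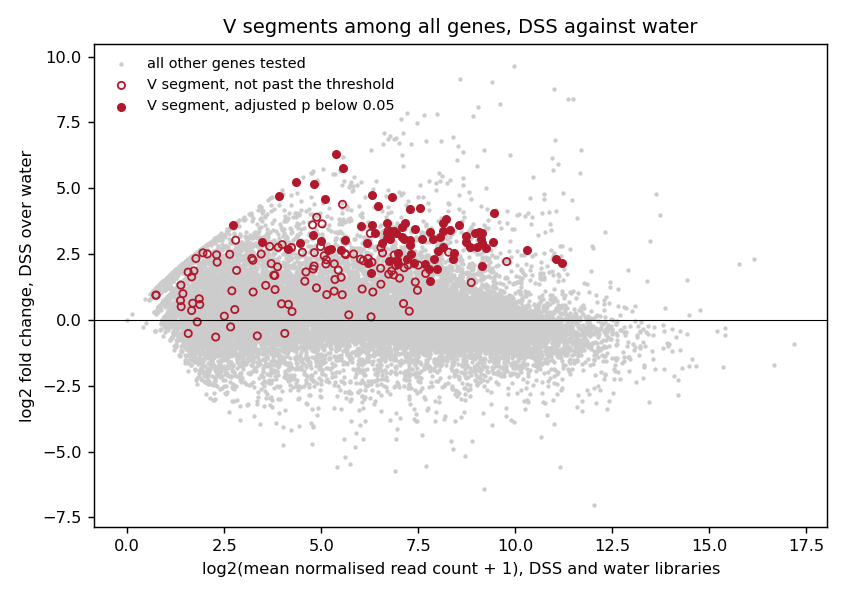
Log2 fold change of DSS over water against log2 of the mean normalised read count plus 1 over the 4 libraries, for V segments past an adjusted p of 0.05 (filled), V segments not past it (open) and all other genes tested (grey). The filled points lie above 0, where 83 of 186 segments passed, and open points crowd at low values.

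Among the heavy chain segments that led a library, Ighv1-75 had the largest change. Its normalised read counts were 105 and 1019 in DSS plus montmorillonite, 1281 and 1334 in DSS, and 75.8 and 77.3 in water, a log2 fold change of DSS over water of 4.08 ± 0.18 (SE, limma adjusted p = 0.00137). The 2 DSS libraries were close to each other, as were the 2 water libraries. Ighv1-64 had 229 and 2215 in DSS plus montmorillonite, 1389.6 and 1035 in DSS, and 153 and 155 in water (log2 fold change of DSS over water 2.96 ± 0.21). Ighv3-6 had 188 and 1920.5 in DSS plus montmorillonite, 746 and 761 in DSS, and 85.4 and 107 in water (2.97 ± 0.21), both with a limma adjusted p of 0.00330. In these 2 segments the higher DSS plus montmorillonite library exceeded both DSS libraries.

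Ighv1-26 had 204 and 1488 in DSS plus montmorillonite, 884 and 885 in DSS, and 50.9 and 155 in water, and rose by 3.30 ± 0.50 in DSS (limma adjusted p = 0.0144). Ighv1-9, first in a water library, had 129 and 487 in DSS plus montmorillonite, 1041 and 732 in DSS, and 182 and 91.0 in water, and rose by 2.75 ± 0.37 (limma adjusted p = 0.0113). Being first in water thus did not keep a segment from rising in DSS. Ighv1-18, Ighv1-55, Ighv1-72 and Ighv8-8 rose too, by 2.92 to 3.29. The exception was Ighv2-2, with 2.88 and 218 in DSS plus montmorillonite, 123 and 171 in DSS, and 49.0 and 268 in water. DSS lay between the 2 water libraries, and the log2 fold change of 0.33 ± 0.76 did not pass (limma adjusted p = 0.793).

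Of the kappa leaders, Igkv14-111 had the steadiest rise. It had 457 and 1997 in DSS plus montmorillonite, 2294 and 2019.6 in DSS, and 342 and 339 in water, a log2 fold change of DSS over water of 2.66 ± 0.16 (limma adjusted p = 0.00237). Igkv17-121 had 629 and 2987 in DSS plus montmorillonite, 5114 and 2015 in DSS, and 688 and 609 in water, and rose by 2.31 ± 0.42 (limma adjusted p = 0.0224). Its DSS libraries differed by more than those of Igkv14-111. Igkv6-23 rose by 2.04 ± 0.21, while Igkv3-4, at 2.21, and Igkv19-93, at 1.42, missed the threshold (limma adjusted p = 0.0544 and 0.0671). In both, water replicate 1 was well above water replicate 2, at 551 and 157 for Igkv3-4 and 373 and 161 for Igkv19-93.

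For all lambda segments the lower DSS value was above the higher water value. Iglv1 had 301 and 1443 in DSS plus montmorillonite, 5637 and 2151 in DSS, and 610 and 973 in water, and rose by 2.17 ± 0.47 (limma adjusted p = 0.0341). Iglv3 had 210.0 and 336 in DSS plus montmorillonite, 1280.1 and 652 in DSS, and 149 and 54.6 in water, and rose by 3.33 ± 0.54 (limma adjusted p = 0.0168). Iglv2 had 83.4 and 105 in DSS plus montmorillonite, 314 and 133 in DSS, and 33.6 and 77.3 in water, with a log2 fold change of 1.98 ± 0.56 that missed the threshold (limma adjusted p = 0.0671).

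The 5 segments with the largest fold change among those that passed were of low level in water. Of these, 4 had no read in either water library. They passed the filter on mean value only through the libraries given DSS, and their direction carries no information. Their fold is given as a lower bound for the pooled DSS reads. It was computed from the reads of both DSS libraries pooled, against 3 reads as the floor of the 2 water libraries together. That floor was a value of 2.02, and where the DSS libraries differ, the lower of them lies below the stated bound. Ighv3-4, with 1.44 and 0 in DSS plus montmorillonite and 17.1 and 167 in DSS, was at least 38.9-fold higher in the pooled DSS reads. Ighv2-5, with 5.75 and 56.3 in DSS plus montmorillonite and 57.6 and 105 in DSS, was at least 37.98-fold higher. Ighv13-2, with 0 and 21.8 in DSS plus montmorillonite and 12.4 and 96.4 in DSS, was at least 23.2-fold higher, and Igkv1-132, with 1.44 and 1.82 in DSS plus montmorillonite and 51.6 and 26.4 in DSS, at least 20.4-fold. The spread between the DSS libraries was widest in Ighv3-4. Ighv14-2 had 14.4 and 67.2 in DSS plus montmorillonite, 172 and 130.4 in DSS, and 4.799 and 4.55 in water, a log2 fold change of 4.73 ± 0.42 (limma adjusted p = 0.00557).

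In DSS plus montmorillonite set against water, limma called 0 of 186 V segments in either direction, as of all genes (0% higher and 0% lower), with a smallest V segment adjusted p of 0.629. At an unadjusted p below 0.05, 22 segments were higher and 2 lower, beside 3.78% of all genes higher and 3.98% lower. edgeR called 0, and DESeq2 called 10 higher and 0 lower, with 0.438% of all genes higher and 0.556% lower. Both libraries were above both water libraries in 56 of the 186 segments, beside 21.5% of all genes, and below both in 6, beside 19.2% of all genes. The median log2 fold change of V segments was 1.07 (0.95 at the bound), with 0.06 over all genes. It was 2.10 without DSS plus montmorillonite replicate 1 and 0.00 without replicate 2, so its size rested on replicate 2. Among the leaders Ighv3-6 stood at 2.64 ± 1.13 and Ighv1-26 at 2.62 ± 1.10 (SE), and Iglv1 at -0.23 ± 0.80.

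DSS plus montmorillonite set against DSS shares its DSS libraries with the first comparison. limma again called 0 of 186 segments, as of all genes (0% higher and 0% lower), with a smallest adjusted p of 0.691, and at an unadjusted p below 0.05 there were 1 higher and 40 lower, beside 3.91% of all genes higher and 3.2% lower. edgeR called 0, and DESeq2 called 5 lower and 0 higher, with 0.0886% of all genes lower and 0.246% higher. In 76 of the 186 segments both DSS plus montmorillonite libraries were below both DSS libraries, beside 20.6% of all genes, and in 4 above, beside 19.4% of all genes. The median log2 fold change was -1.48 (-1.35 at the bound), beside -0.07 over all genes. Without replicate 2, which leaves the single library that resembled water, 38 V segments were lower, with 1.11% of all genes lower and 0.291% higher, at a V segment median of -2.38. That lone library is assumed to vary like the DSS libraries. Without replicate 1 the median was -0.21 and 0 passed. Ighv8-8 had a log2 fold change of -3.01 ± 0.85 and Iglv3 of -1.78 ± 0.45 (SE), each with a limma adjusted p of 0.691. Both were among the 76 segments without overlap, so this was not particular to them.

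Other genes of the B lineage rose in DSS against water, where 7.9% of all genes tested rose and 7.18% fell. Of 12 constant region genes 9 rose (median log2 fold change 2.45, beside 0.10 over all genes), and Igha, the constant region of immunoglobulin A, rose by 2.30 (limma adjusted p = 0.00691). Of the others Ighm rose by 2.61, Ighg1 by 3.41, Ighg2b by 3.35, Ighg2c by 3.98, Igkc by 2.13 and Iglc2 by 2.05 (log2), while Iglc1, at 1.68, did not pass (limma adjusted p = 0.0826). Among heavy chain constant regions per kb, Igha held 79.6% and 78.8% in DSS plus montmorillonite, 71.0% and 57.6% in DSS, and 81.2% and 85.6% in water, while Ighg2c, of an immunoglobulin G, held 15.1% and 15.5%, 18.9% and 34.1%, and 12.8% and 8.29% in the same groups. In DSS the share of Igha was lower and that of Ighg2c higher than in each of the other 4 libraries. Of 12 plasma cell genes 6 rose (median 1.28), among them Jchain, the joining chain of polymeric antibodies (log2 fold change 1.501), and Mzb1, an antibody folding factor (2.02). Of 12 follicular B cell genes 11 rose (median 3.05), among them Ms4a1, which encodes the B cell surface protein CD20 (2.96). The summed level of the follicular list was 283 and 2177 in DSS plus montmorillonite, 6629.7 and 2837 in DSS, and 439 and 614 in water, and that of the plasma cell list 17263 and 40044 in DSS plus montmorillonite, 52453 and 38129 in DSS, and 19578 and 16224 in water. Most of the plasma cell sum was Jchain in every library. It had 10951 and 27673 in DSS plus montmorillonite, 40278 and 24417 in DSS, and 13043 and 9411 in water. B cells without antibody secretion also carry V segment transcripts, and the part of either cell type in the V segment levels was not tested.

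Smaller lists are to be read against the same shares of all genes, 7.9% higher and 7.18% lower. Of 8 germinal centre genes 3 rose (median 1.43). The 2 genes tested from the list named for V(D)J recombination, Vpreb1 and Vpreb3, are not recombination enzymes. Vpreb3, expressed in B cell precursors and some mature B cells, rose by 3.88, while Vpreb1 did not pass (limma adjusted p = 0.177). Rag1 and Rag2 were not analysed here. In the list of immunoglobulin A cell homing and transport Cxcl12, Cxcr4 and Madcam1 rose, and Ccl28, an epithelial chemokine for plasma cells, and Pigr, the receptor that carries immunoglobulin A across the epithelium, fell, with 4 of 9 not passing. T cell receptor V segments, the counterparts in T cells, gave 0 of 12 (median 0.49). All 13 of them together summed to only 11.5 to 49.1 per library. At so low a level this result cannot be set against that of the immunoglobulin segments. Markers of other cells moved too: 5 of 5 neutrophil genes rose and 5 of 5 epithelial genes fell, 2 of 5 macrophage and 1 of 7 T cell genes rose, and 0 of 4 smooth muscle genes passed. The summed epithelial level was 142509 and 74244 in DSS plus montmorillonite, 56288 and 37274 in DSS, and 132767 and 137888 in water, and the neutrophil sum was 105 and 6904 in DSS plus montmorillonite, 3034 and 7146 in DSS, and 23.0 and 36.4 in water. Epithelial and smooth muscle markers of the colon were thus present in every library, with smooth muscle sums of 10377 to 35064, and the part of tissue composition in the V segment levels was not tested. In the other 2 comparisons no gene of these lists passed.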

How the data were processed

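RNA of 6 distal colon libraries was measured, 2 per group, with groups and replicate numbers from the sample titles. The authors deposited 1 normalised signal value per gene and library, and per the submitters' processing notes the build was mm10 (GRCm38); the sources used here do not give aligner, counter or normalization. For every library 100% of the deposited signal values were whole multiples of 1 read within 0.01, so reads could be recovered. The value of 1 read times the median-of-ratios size factor of the library was 1 in every library. That factor is the median ratio of a library's reads to the geometric mean over libraries, so the deposited values equal the recovered reads divided by it. edgeR on these reads called 1666 genes higher and 1327 lower in DSS against water. Of the identifiers 20500 were found in GENCODE M21 and 33 were not.

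The main test was limma 3.58.1 (R 4.3.3) with an intensity trend on log2(value + 1), two-sided, on the 4 libraries compared, for the 20307 genes whose mean over all 6 libraries was 1 or more, with Benjamini-Hochberg adjustment over them. Fold changes are on that scale and understate changes of low genes. edgeR 4.0.16 (quasi-likelihood) and DESeq2 1.42.0 were alternatives, beside other pseudocounts, filters, scalings, thinning and omitted libraries. Sums and shares over the members carry no p.

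Members and gene lists were chosen with earlier results of these data known. Named segments were the 3 with the largest share of Ighv and of Igkv in each library, all Iglv, and the 5 with the largest change each way among those that passed with a mean of at least 5; families needed 10% in a library. Values of a few list genes are not reported here. Ighv12-3, Igkv4-62 and segments described as high in a single library or as the closest copy of another were chosen after their values were seen. The likeness of segments to constant regions over the 6 libraries is not given, since the libraries fall into separate clusters.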

Additional observations from a re-analysis of the deposited data

How the results depend on the processing

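The count of V segments higher in DSS than in water, 83, was 79 to 112 with either pseudocount, either filter, either scaling, edgeR or DESeq2. It was 0 with all 6 libraries in 1 limma fit, 0 with edgeR on all 6 libraries (chosen after seeing the data), 12 with reads thinned to 3741494 per library, and 0 to 40 when single libraries were left out. Under scaling by library size alone all genes had a median log2 change of 0.33 in DSS against water, and V segments one of 2.62. With the replicate number as a block it was 126, but same-numbered libraries deviated together only weakly (correlation 0.09 between DSS and water, 0.08 between DSS plus montmorillonite and water, 0.30 between DSS plus montmorillonite and DSS), so that the pairing is not established. DESeq2 called 10 segments higher in DSS plus montmorillonite than in water and 5 lower than in DSS, and leaving out single libraries gave 0 to 38 lower than in DSS. The cause was not tested.

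With single libraries left out, the Iglv difference of DSS plus montmorillonite from water ranged over -0.66 to 1.01 and the Ighv difference from DSS over -2.74 to 0.041 (log2), and 33 of 36 such locus values kept their direction. The difference in effective number of segments, DSS against water, ranged over -4.78 to 0.719 for Ighv and -3.70 to 5.001 for Igkv. For Igkv in DSS plus montmorillonite it ranged over -0.820 to 1.66 against water (-0.550 by Shannon entropy) and -4.58 to 4.12 against DSS. Ighv2-2 had a log2 fold change of -0.075 with DESeq2, -0.011 with edgeR, -0.053 with edgeR on all 6 libraries and -0.88 to 1.55 with single libraries left out. Depth limits the water libraries and DSS plus montmorillonite replicate 1 most, with 3512 to 8778 V segment reads.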

Other observations

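A pair of kappa segments were also high in a single library, and were chosen after their values were seen. Igkv3-5 held 2.97% of the locus in DSS replicate 2, from 1298 reads, against a median of 0.330% in the other 5 libraries. Igkv16-104 held 2.33% in DSS plus montmorillonite replicate 2, from 287 reads, against a median of 0.415%.

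Joining segments, which follow the V segment in a rearranged gene, summed to 80.5 and 247 in DSS plus montmorillonite, 409 and 216 in DSS, and 78.7 and 84.1 in water over 11 genes, and 1 of the 11, Ighj4, rose in DSS against water by limma, a share near the 7.9% of all genes that rose. V pseudogenes, copies of V segments that encode no functional chain, summed to 10.1 and 12.7 in DSS plus montmorillonite, 28.5 and 2.88 in DSS, and 2.88 and 0 in water over 6 genes, and none of the 5 tested passed (median log2 fold change 1.41).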
